A study of Epimedium pubescens with 12 samples.

Results

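The genes described here encode 4 enzymes at the point where the flavonoid pathway of *Epimedium pubescens* turns towards flavonols: *EpF3H* (Ebr04G062950), *EpF3'H1* (Ebr03G047030), *EpF3'5'H1* (Ebr01G061940) and *EpFLS3* (Ebr04G051790). They were taken by gene identifier, using the names of the study, and are 4 of the 53813 genes in the leaf count table. All 4 entered the test, in which 24307 genes were compared. One-year-old seedlings were grown in pots of sand and perlite and watered with an adjusted Hoagland nutrient solution that held either no phosphate (-P, 0 mmol/L Pi) or normal phosphate (+P, 1 mmol/L Pi), for 30 d or 90 d. This gave 4 groups of leaf samples, a -P and a +P group at each time, with 3 biological replicates per group lettered A, B and C. The solutions also differed in the other salts used to balance them, so phosphate and its counter-ions cannot be told apart. How many seedlings went into 1 RNA sample is not stated. RNA was taken from leaves, and in such bulk samples fewer cells of a type and less RNA per cell cannot be told apart.

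Flavonoids are built from phenylalanine through a chalcone and a flavanone. Flavanone 3-hydroxylase (F3H) converts flavanones into dihydroflavonols, flavonoid 3'-hydroxylase (F3'H) and flavonoid 3',5'-hydroxylase (F3'5'H), both cytochrome P450 enzymes, add hydroxyl groups to the B ring, and flavonol synthase (FLS) oxidises dihydroflavonols to flavonols. Dihydroflavonol reductase competes for the same substrates and leads to anthocyanins and proanthocyanidins. Epimedium leaves are known for prenylated flavonol glycosides such as icariin, whose skeleton is a flavonol.

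The study designed RT-qPCR primers for each of the 4 genes. They are shown in lower case, 5' to 3', because they are the only sequences of these genes used here and mark the transcripts that the study amplified under these names. The study reported that RT-qPCR of the genes it selected matched its RNA sequencing. The RT-qPCR measurements were not analysed here.
EpF3H forward: ctctccttcttaatcaccttct
EpF3H reverse: tcaactgaatcggctcca
EpF3'H1 forward: tctcttggttcatcatagcc
EpF3'H1 reverse: aacgaactcaaggttggt
EpF3'5'H1 forward: atggtggagactatacactca
EpF3'5'H1 reverse: agacgttgaactgatccaat
EpFLS3 forward: caatagcaccgtcactgt
EpFLS3 reverse: gcaattatcatcggttctga

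The 8 primers were 18 to 22 bases long, with 8 or 9 G or C bases each. In the coordinates of the deposited tables, whose genome build is not given in the sources used here, *EpF3H* lay on chromosome 4 from 491866998 to 491869608 on the minus strand and *EpFLS3* on chromosome 4 from 405527936 to 405530814 on the plus strand. *EpF3'H1* lay on chromosome 3 from 380215144 to 380217595 and *EpF3'5'H1* on chromosome 1 from 536407183 to 536409054, both on the minus strand. No other gene of the table overlapped any of them. *EpF3'5'H1* had neighbouring copies with the same annotation, Ebr01G061950 with 0 or 1 count in each library and Ebr01G061960 with 0 to 14 counts. The neighbouring copy of *EpFLS3*, Ebr04G051800, had 0 counts in every library. The locus nearest to *EpF3'H1*, 3918 bases away and outside the reference annotation, was also annotated as a flavonoid 3'-monooxygenase and had 48 counts over all libraries. How the authors treated reads that fit several copies is not stated.

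The 12 libraries held 14756971 to 18153463 counts. Summed FPKM of 57 genes annotated as photosynthetic leaf markers ran from 41794 to 80701 in 10 libraries and was lower in 90d -P B (25772) and 90d +P B (23395). Markers of the root endodermis were at or near 0, with a summed FPKM of 0 to 0.194 over 3 genes. Spearman correlations between libraries of 1 group ran from 0.870 to 0.966, and the lowest was between 90d +P B and 90d +P C. Each 90d -P library was closer to a 90d +P library than to any of its own group. The highest correlations were 0.917 against 0.904 for A, 0.914 against 0.904 for B and 0.908 against 0.903 for C. In the same way 30d +P A was closer to 30d -P C (0.913) than to its own group (at most 0.891). Libraries of 1 group differed by far more than counting noise, with a chi-square of 25.3 to 133 per gene over the 12 within-group pairs, so none was a repeat of another. Group differences below are log2 fold changes from edgeR's quasi-likelihood test over all 12 libraries, and a gene was called at an adjusted p of at most 0.05 (Benjamini-Hochberg over all genes tested) with a log2 fold change of at least 1 in size.

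At 30 d, the levels of all 4 genes were higher in every -P library than in any +P library, and none of the differences passed edgeR's test. The study picked these genes from the part of a gene ranking that drove a pathway score for 30d -P against 30d +P in these same libraries, so the 30 d values are a description and not independent evidence. It combined that ranking with structural genes of the pathway known from earlier work. *EpF3H*, which makes dihydroflavonols, had 1102, 1165 and 888 CPM (read counts scaled to a common library size) in 30d -P A, B and C. Its CPM in 30d +P A, B and C was 417, 682 and 450.4. The lowest -P library stood above the highest +P library, and the log2 fold change was 1.03 (SE 1.06, 95% interval -1.32 to 3.37, edgeR adjusted p = 0.90).

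*EpF3'H1*, which hydroxylates the 3' position of the B ring, showed the widest gap relative to its spread at 30 d. Its CPM was 92.6, 72.4 and 70.8 in 30d -P A, B and C. In 30d +P A, B and C it was 19.0, 11.5 and 15.8. The -P libraries lay within 1.31-fold of each other and the +P libraries within 1.65-fold, and the log2 fold change was 2.35 (SE 1.09, 95% interval -0.074 to 4.77, edgeR adjusted p = 0.695). *EpF3'5'H1*, which can hydroxylate both the 3' and 5' positions, had 499, 348 and 238 CPM in 30d -P and 2.77, 201 and 57.4 CPM in 30d +P. The +P libraries spanned 72.7-fold, with 30d +P A far under the others, and 30d +P B was close to the lowest -P library. The log2 fold change was 2.05 (SE 2.04, 95% interval -2.46 to 6.57, edgeR adjusted p = 0.892).

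*EpFLS3*, the flavonol-forming enzyme, had 818, 709 and 504 CPM in 30d -P and 336, 457 and 469 CPM in 30d +P. The groups did not overlap, and the gap between the lowest -P and the highest +P library was small. The log2 fold change was 0.69 (SE 0.76, 95% interval -0.99 to 2.36, edgeR adjusted p = 0.912). Over all genes tested, 6.82% were higher in every -P than in every +P library at 30 d, and nothing is read from the 4 genes against that share, since the same contrast chose them. edgeR called 0 genes in this comparison (0% of those tested), against 1180 (4.85%) at an unadjusted p under 0.05 with the same fold. DESeq2 on the 6 libraries alone called 570 genes (2.33%), among them *EpF3'H1* (adjusted p = 2.3e-11) and *EpF3H* (adjusted p = 0.0224), but neither *EpF3'5'H1* (adjusted p = 0.392) nor *EpFLS3* (adjusted p = 0.256). edgeR on the same 6 libraries alone called 0 genes, with adjusted p of 0.384 (*EpF3H*), 0.185 (*EpF3'H1*), 0.730 (*EpF3'5'H1*) and 0.566 (*EpFLS3*). Its unadjusted p in that order was 0.0061, 4.9e-05, 0.139 and 0.033, against 0.354, 0.056, 0.336 and 0.384 over all libraries. The 30 d SEs and intervals of the 4 genes use a spread estimated over all 4 groups, not the 30 d libraries alone.

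**Figure D1:**
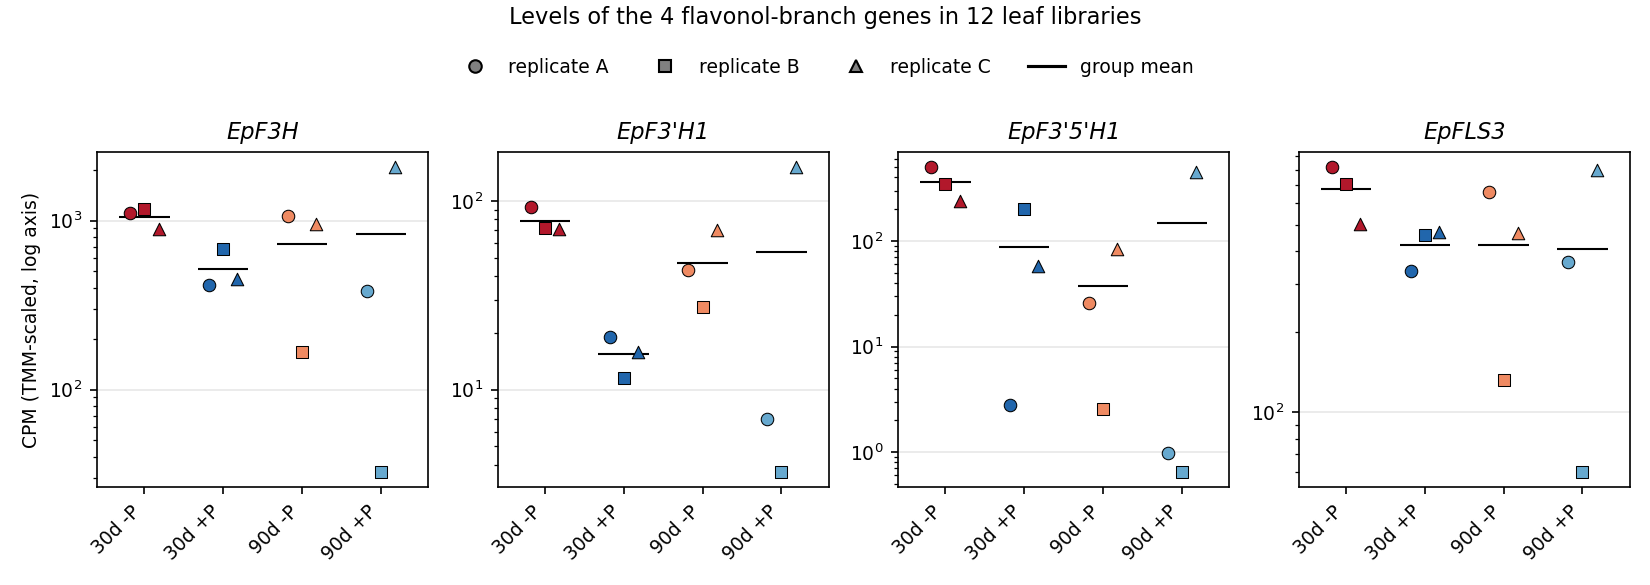
CPM of each gene in the 12 libraries, on log axes that differ between panels; each point is 1 library, its shape the replicate letter, and the black line the mean of the 3 libraries of a group. The -P points lie above the +P points at 30 d in all 4 panels, while at 90 d the 90d +P libraries reach from below to above the 90d -P libraries.

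At 90 d, in libraries that took no part in choosing the genes, the order of the groups no longer held for any of the 4 genes. Every gene overlapped between 90d -P and 90d +P, and the spread inside each group was larger than the difference between them. The shares of tested genes without overlap were 4.43% (higher in -P) and 4.49% (lower in -P). edgeR called 0 genes here (0%), against 1065 (4.38%) at an unadjusted p under 0.05 with the same fold and 183 (0.761%) by DESeq2 on the 6 libraries, none of them these 4.

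*EpF3H* had 1060.3, 167 and 948 CPM in 90d -P A, B and C. In 90d +P A, B and C it had 384, 32.4 and 2068 CPM. The +P libraries thus held both its lowest and its highest value of the whole series, 63.7-fold apart, and the log2 fold change was -0.19 (SE 1.05, 95% interval -2.51 to 2.13, edgeR adjusted p = 1.00). *EpF3'H1* had 43.2, 27.3 and 69.8 CPM in 90d -P and 6.97, 3.65 and 151 CPM in 90d +P, so that its series-wide extremes also both fell among the +P leaves. The log2 fold change for -P was -0.20 (SE 1.04, 95% interval -2.50 to 2.10, edgeR adjusted p = 1.00).

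*EpF3'5'H1* was nearly silent in some leaves at 90 d. It had 25.9, 2.56 and 83.4 CPM in 90d -P, and 0.970, 0.645 and 446 CPM in 90d +P. The values in 90d +P A and B rested on 16 and 12 counts, with exact 95% Poisson intervals of 9.15 to 26.0 and 6.20 to 20.96 counts that cover counting error only, against 8266 counts in 90d +P C. The log2 fold change was -2.00 (SE 2.04, 95% interval -6.52 to 2.51, edgeR adjusted p = 1.00). *EpFLS3* had 662, 132 and 466 CPM in 90d -P and 362, 59.9 and 798 CPM in 90d +P, with a log2 fold change of 0.047 (SE 0.75, 95% interval -1.62 to 1.72, edgeR adjusted p = 1.00). Within 90d +P it had the narrowest range of the 4, and these libraries still spanned 13.3-fold. Within 90d -P the range of *EpF3'H1* was narrower, 2.55-fold against 5.01-fold for *EpFLS3*.

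The direction at 90 d rested on single libraries. In 90d +P C the levels were above those of 90d +P A by 5.39-fold for *EpF3H*, 21.7-fold for *EpF3'H1*, 460.2-fold for *EpF3'5'H1* and 2.20-fold for *EpFLS3*. All 4 genes kept the order B below A below C within 90d +P, an order found in 19.4% of tested genes. A level in 90d +P C over 2 times that of both other 90d +P libraries was found for all 4 and for 8.89% of tested genes. Without 90d +P C the 90 d log2 fold changes were 1.80 for *EpF3H*, 3.14 for *EpF3'H1*, 5.53 for *EpF3'5'H1* and 1.00 for *EpFLS3*, with edgeR adjusted p of 0.691, 0.170, 0.617 and 0.799. The sign turned for the 3 hydroxylases, and no gene was called. Leaving out 90d -P B, the lowest 90d -P library for all 4 genes (29.4% of tested genes were lowest there), also turned *EpF3H* to 0.27 and *EpF3'H1* to 0.070. *EpFLS3*, close to 0 with all libraries, went as low as -0.47 without 90d +P B.

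**Figure D2:**
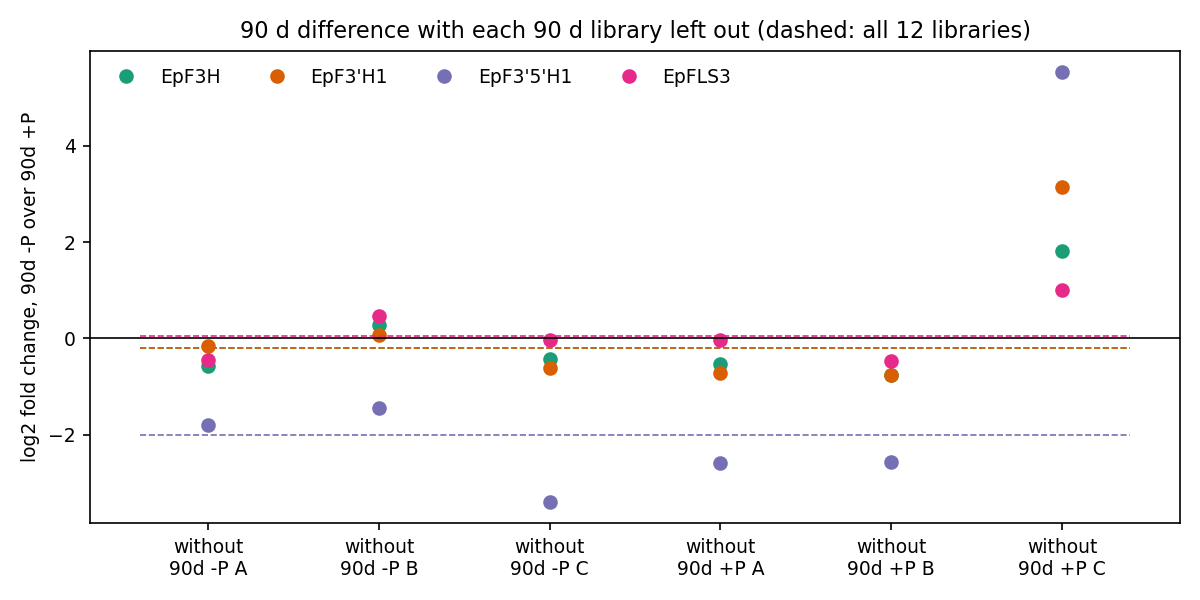
The log2 fold change of 90d -P over 90d +P for each gene when 1 of the 6 libraries at 90 d is left out; dashed lines give the value with all libraries. Without 90d +P C the points rise to between 1.00 and 5.53, and in the other positions they lie between -3.39 and 0.46.

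The difference between the phosphate effects at 90 d and at 30 d was tested as an interaction and was called for none of the 4 genes. Its log2 values were -1.22 for *EpF3H* (SE 1.48), -2.55 for *EpF3'H1* (SE 1.49), -4.06 for *EpF3'5'H1* (SE 2.88) and -0.64 for *EpFLS3* (SE 1.06), each with an edgeR adjusted p of 1.00. Without 90d +P C the same values were 0.78, 0.79, 3.47 and 0.31. The direction of the interaction therefore rested on that library for all 4 genes. Over all genes, 0 were called (0%) and 613 (2.52%) had an unadjusted p under 0.05 with the same fold. The 30 d libraries enter this test and also chose the genes.

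Between 30 d and 90 d without phosphate, both B-ring hydroxylases were lower at 90 d in every library, with no call. *EpF3'H1* went from 70.8 to 92.6 CPM at 30 d to 27.3 to 69.8 CPM at 90 d, a log2 fold change of -0.75 (SE 1.04, 95% interval -3.06 to 1.56, edgeR adjusted p = 0.711). *EpF3'5'H1* went from 238 to 499 CPM to 2.56 to 83.4 CPM, a log2 fold change of -3.28 (SE 2.14, 95% interval -8.03 to 1.47, edgeR adjusted p = 0.376). For *EpF3'H1* the nearest libraries of both times almost touched, while for *EpF3'5'H1* they were well apart. Among all genes tested, 18% were lower in every 90d -P library than in every 30d -P library, and edgeR called 1356 genes (5.58%). DESeq2 on the 6 libraries called *EpF3'5'H1* (adjusted p = 0.00607) and 13.2% of its tested genes.

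*EpF3H* and *EpFLS3* overlapped between 30d -P and 90d -P, because 90d -P A and C were near the 30 d levels and 90d -P B was far lower. Their log2 fold changes were -0.54 (SE 1.05, edgeR adjusted p = 0.806) and -0.69 (SE 0.76, edgeR adjusted p = 0.624). With phosphate, all 4 genes overlapped between 30 d and 90 d, against 11.7% of tested genes higher and 14.3% lower without overlap. The log2 fold changes were 0.68 for *EpF3H* (SE 1.05), 1.80 for *EpF3'H1* (SE 1.07), 0.78 for *EpF3'5'H1* (SE 1.97) and -0.050 for *EpFLS3* (SE 0.75), with edgeR adjusted p of 0.772, 0.365, 0.870 and 0.983, in a comparison in which 734 genes (3.02%) were called. Without 90d +P C they were -1.31, -1.54, -6.75 and -0.999, with adjusted p of 0.465, 0.0829, 0.0924 and 0.491. The sign of the 3 hydroxylases was thus again set by that library. Both time comparisons use the 30 d libraries that chose the genes.

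**Figure D3:**
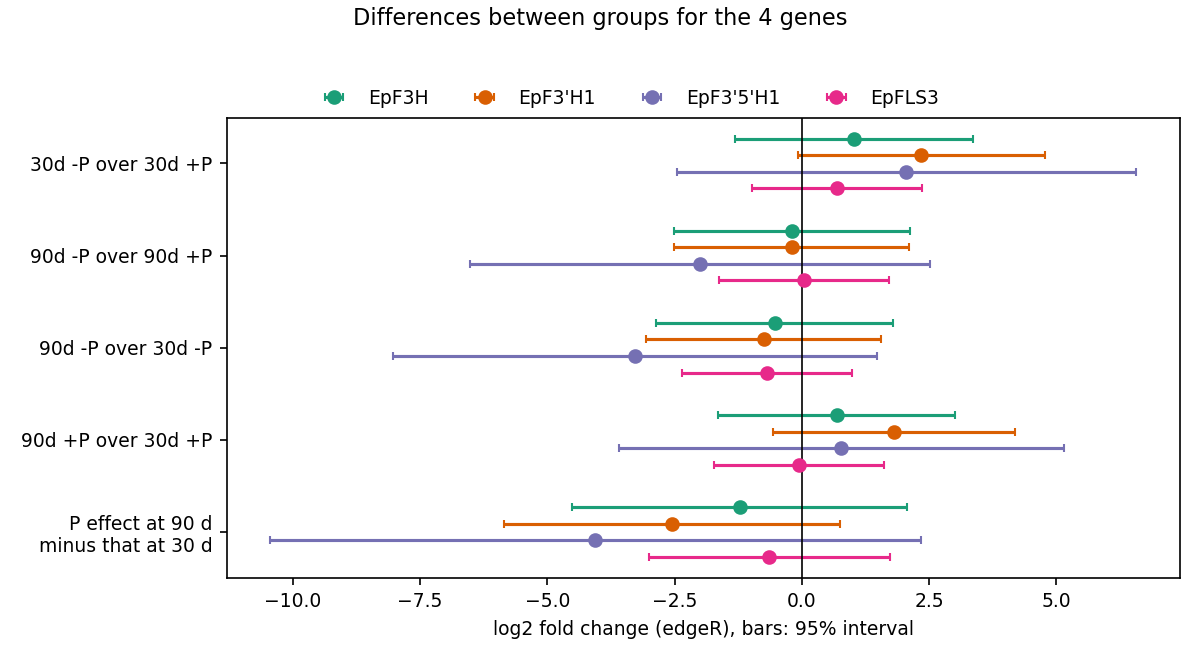
Log2 fold changes of the 4 genes (points) with 95% intervals from edgeR over all 12 libraries, for the 4 comparisons of groups and for the difference of the phosphate effects. The intervals use a spread estimated over all groups, so those at 30 d do not show the scatter of the 30 d libraries alone. Every interval crosses 0, and the nearest to clearing it is *EpF3'H1* at 30 d, from -0.074 to 4.77.

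Across the 12 libraries the 4 genes moved together. Pearson's r of log2 CPM was 0.97 between *EpF3H* and *EpFLS3*, 0.81 between *EpF3H* and either B-ring hydroxylase, 0.78 between *EpF3'H1* and *EpF3'5'H1*, 0.80 between *EpF3'5'H1* and *EpFLS3*, and 0.72 between *EpF3'H1* and *EpFLS3* (n = 12 libraries, a description, since the points share groups and library composition). *EpFLS3* ranked 2 among the 24306 other tested genes by likeness to *EpF3H*, and *EpF3H* ranked 4 by likeness to *EpFLS3*. In the other pairs the ranks ran from 68 to 718, so many other genes were more alike to a member than these. The r of *EpF3'H1* with *EpF3'5'H1* was 0.56 within the 30 d libraries and 0.95 within those at 90 d. Within the 6 libraries at 90 d the r of *EpF3H* with *EpFLS3* was 0.98, and within the 6 at 30 d it was 0.88. All 4 genes had their lowest level in 90d +P B (14.4% of tested genes). *EpF3H* and *EpF3'H1* were highest in 90d +P C, and *EpF3'5'H1* and *EpFLS3* in 30d -P A. 90d +P B was also the library with the lowest summed leaf markers, and 90d -P B the second lowest. The part of leaf marker content in the members' levels was not tested.

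The genes differed widely in level and in steadiness. On the length-corrected FPKM scale the 12-library means were 542 for *EpF3H*, 377 for *EpFLS3*, 87.9 for *EpF3'5'H1* and 28.1 for *EpF3'H1*. *EpF3H* was above *EpFLS3* in 9 of 12 libraries, and *EpFLS3* was above *EpF3H* in 30d +P C, 90d +P A and 90d +P B. Their ranges overlapped in each of the 4 groups. Compared within the same library, *EpF3H* was the higher in every -P library, and the order was mixed in +P at both times. The difference between these neighbours was not tested. *EpFLS3* lay above *EpF3'5'H1* without overlap in every group but 90d +P, and *EpF3'5'H1* lay above *EpF3'H1* without overlap in 30d -P only. *EpF3'5'H1* spanned 775-fold in CPM over the 12 libraries, *EpF3H* 63.7-fold, *EpF3'H1* 41.4-fold and *EpFLS3* 13.6-fold. The biological coefficient of variation within groups was 1.43 for *EpF3'5'H1*, higher than in 94.3% of tested genes, and 0.63 to 0.84 for the others.

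The balance of the B-ring hydroxylases shifted between libraries. In FPKM, *EpF3'5'H1* exceeded *EpF3'H1* in all 3 libraries of 30d -P, by 5.15-, 4.59- and 3.22-fold. In 30d +P, *EpF3'H1* was 7.18-fold the higher in A, and *EpF3'5'H1* was 16.8-fold and 3.46-fold the higher in B and C. In 90d -P the order was mixed: *EpF3'H1* was 1.75-fold and 11.2-fold the higher in A and B, and *EpF3'5'H1* was 1.14-fold the higher in C. In 90d +P, *EpF3'H1* was 7.53-fold and 5.94-fold the higher in A and B, and *EpF3'5'H1* was 2.82-fold the higher in C. The mean log2 ratio of *EpF3'H1* to *EpF3'5'H1* at 30 d was -2.08 ± 0.35 without and -1.005 ± 3.52 with phosphate, and at 90 d it was 1.37 ± 1.90 without and 1.33 ± 2.45 with phosphate (mean ± SD over 3 libraries). An exact two-sided permutation test gave p = 0.10 for 90d -P against 30d -P, the smallest that 3 against 3 allows, 0.30 for 90d +P against 30d +P, 0.80 for phosphate at 30 d and 1.00 for phosphate at 90 d.

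Each gene was also read against the other genes with the same annotation. *EpF3H* made up a median of 94.1% of the summed FPKM of its family (38.9% to 98.1%, 7 other genes) and *EpFLS3* 93% (67.9% to 99.6%, 3 other genes). *EpF3'5'H1* made up a median of 53.6%, but from 1.43% in 90d +P B to 92.9%, over 5 other genes. The most abundant of these, Ebr05G058370, had log2 fold changes of 0.0069 and 0.42 for phosphate at 30 d and 90 d, and of -0.27 and -0.68 over time without and with phosphate, with no edgeR call (adjusted p of at least 0.111). The most abundant other F3H gene, Ebr04G011220, and other FLS gene, Ebr05G059690, were called by edgeR in no comparison either.

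In the F3'H family, another gene was far higher at 90 d than at 30 d. Ebr03G048300 (chromosome 3, 390566931 to 390570773) had 0.239, 0.931 and 1.22 FPKM in 30d -P and 4.61, 0.341 and 2.04 FPKM in 30d +P. At 90 d it had 52.7, 70.8 and 30.7 FPKM in 90d -P and 56.1, 58.4 and 63.7 FPKM in 90d +P. Every 90 d library was above every 30 d library, whatever the phosphate. It rose by a log2 fold change of 5.98 (SE 0.87, edgeR adjusted p = 0.0129) without phosphate and 4.63 (SE 0.81, edgeR adjusted p = 0.0254) with it. At 90 d it exceeded *EpF3'H1* in 4 of the 6 libraries, and *EpF3'H1* was the higher in 90d -P C and 90d +P C.

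A further F3'H gene, Ebr03G048460, rose as well, from at most 0.369 FPKM at 30 d to between 1.19 and 8.53 FPKM at 90 d, with log2 fold changes of 4.81 (edgeR adjusted p = 0.0329) and 4.36 (edgeR adjusted p = 0.0484). edgeR thus called 2 of the 7 other F3'H genes tested in each time comparison, where it called 5.58% (-P) and 3.02% (+P) of all genes. DESeq2 on 6 libraries called 3 (-P) and 2 (+P) of these F3'H genes, against 13.2% and 9.23% of its tested genes. The 30 d levels of both genes rest on few counts, 1 to 9 per library for Ebr03G048460 and 5 to 110 for Ebr03G048300, so the size of these folds is uncertain. With each library left out in turn, the call of Ebr03G048300 held in 11 of 12 cases without phosphate (lost without 30d -P B, adjusted p = 0.0583) and in 7 of 12 with it (lost without 30d -P B, 30d +P B, 30d +P C, 90d +P A or 90d +P B, highest adjusted p = 0.121). That of Ebr03G048460 held in 7 of 12 without phosphate (lost without 30d -P A or B or any 90d -P library, highest adjusted p = 0.119) and in 1 of 12 with it, when 90d -P C was left out (highest adjusted p = 0.163 without 30d +P B), with log2 fold changes of 3.44 to 5.98.

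The share of *EpF3'H1* in the family's summed FPKM was 84.0%, 72.8% and 70.2% in 30d -P and 35.2%, 38.8% and 34.0% in 30d +P. It was 22.9%, 15.0% and 42.7% in 90d -P and 4.60%, 2.92% and 45.6% in 90d +P. Every 30d -P share lay above every 90d share. The summed FPKM of the family, *EpF3'H1* included, was 57.0 to 65.2 in 30d -P and 17.1 to 30.4 in 30d +P, and 94.8 to 108 in 90d -P and 73.5 to 192 in 90d +P. The family total was therefore higher in every 90 d library than in any 30 d library of the same treatment, while *EpF3'H1* was lower at 90 d in -P and overlapped in +P.

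**Figure D4:**
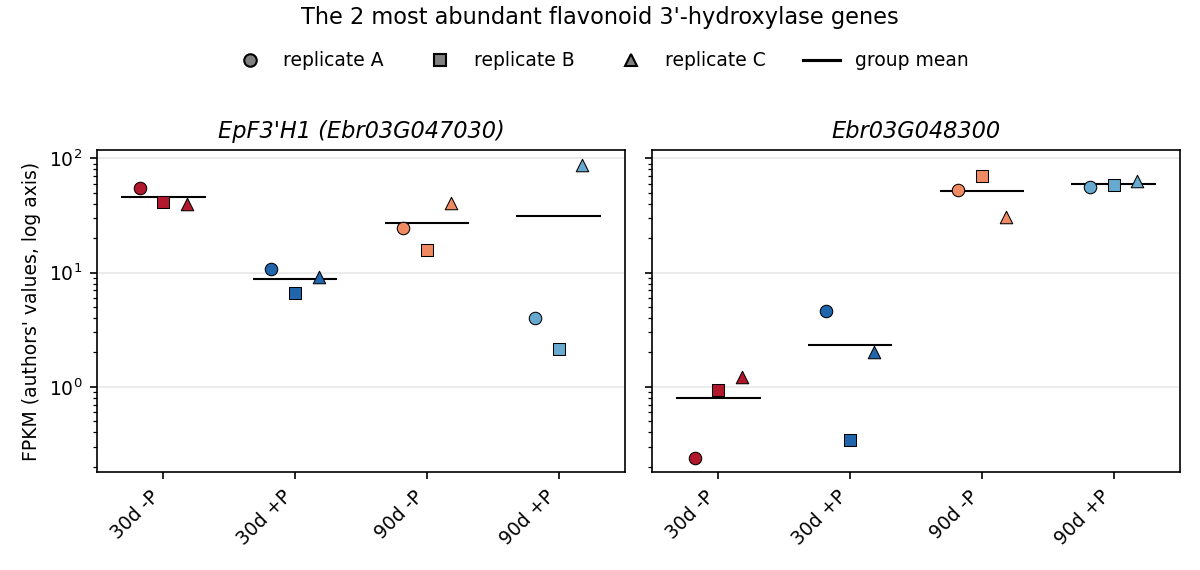
FPKM of *EpF3'H1* and of Ebr03G048300 in the 12 libraries on 1 log axis; points are libraries, shapes the replicate letters and black lines the means of 3 libraries. Ebr03G048300 lies at or under 4.61 FPKM at 30 d and at or above 30.7 FPKM at 90 d, while *EpF3'H1* spans 2.15 to 87.3 FPKM within 90d +P alone.

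The genes whose levels over the 12 libraries were most like each member differed between members (r of log2 CPM, n = 12, given as a description). For *EpF3H* they were Ebr04G004880, annotated as dihydrofolate reductase (0.98), *EpFLS3* (0.97) and Ebr06G040830, annotated as an anthocyanidin-3-O-glucoside rhamnosyltransferase (0.97). For *EpFLS3* they were the chalcone synthase genes Ebr05G049130 (0.98) and Ebr03G073940 (0.97) and again Ebr06G040830 (0.98). Chalcone synthase makes the first flavonoid skeleton. For *EpF3'5'H1* they were Ebr04G070630, a cytochrome b5 (0.98), Ebr05G064230, an ascorbate-specific transmembrane electron transporter (0.97), and Ebr05G052940, a leucoanthocyanidin dioxygenase of the anthocyanin branch (0.96). For *EpF3'H1* they were Ebr04G065310, a PIN-LIKES 3 protein (0.93), Ebr05G065510, a disease resistance protein (0.92), and a locus outside the reference annotation with the name of a beta-galactosidase (0.91). An r above 0.9 was reached by 34 genes for *EpF3H*, 40 for *EpFLS3*, 24 for *EpF3'5'H1* and 5 for *EpF3'H1*.

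The steps around the 4 genes followed the same libraries. Of 18 tested upstream genes, from phenylalanine ammonia-lyase to chalcone isomerase, 17 had a positive log2 fold change for -P at 30 d (median 0.56) and 2 at 90 d (median -0.45), where 49.3% and 49.5% of all tested genes were positive and their medians were -0.0080 and -0.0026. edgeR called none for phosphate, and DESeq2 on 6 libraries called 1 at 30 d, the chalcone synthase gene Ebr03G073780 (edgeR log2 fold change 1.80, DESeq2 adjusted p = 0.00556), and 0 at 90 d. Over time edgeR called only Ebr03G073780, which rose by 4.13 without and 6.07 with phosphate on the log2 scale (edgeR adjusted p = 0.00282 and 0.000724). DESeq2 on 6 libraries called 1 upstream gene higher and 7 lower over time without phosphate, and 2 higher with it. Of all its tested genes it called 4.07% higher and 9.1% lower without phosphate, and 2.87% higher and 6.35% lower with it. For phosphate it called 2.33% at 30 d and 0.761% at 90 d. The edgeR shares over time were 5.58% without and 3.02% with phosphate. Of 9 tested downstream genes, from dihydroflavonol reductase to the reductases of proanthocyanidin synthesis, 7 were positive at 30 d (median 0.92) and 2 at 90 d (median -0.61), with no call for phosphate by edgeR or by DESeq2 on 6 libraries. Over time without phosphate the upstream median was -1.09 and the downstream median -0.79, and with phosphate -0.051 and 0.33. The most abundant upstream gene, the chalcone synthase gene Ebr01G026640, had log2 fold changes of 0.53 and 0.058 for phosphate at 30 d and 90 d. Those of the most abundant downstream gene, the leucoanthocyanidin dioxygenase gene Ebr05G052880, were 0.96 and -0.62. edgeR called neither gene in any comparison. Over time without phosphate Ebr05G052880 had an edgeR log2 fold change of -2.73 and a DESeq2 adjusted p of 0.000658 on 6 libraries. DESeq2 on 6 libraries called 3 downstream genes lower over time without phosphate and 1 higher with it.

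Summed FPKM of the upstream genes ran from 811 in 90d +P B to 6067 in 90d +P C, and that of the downstream genes from 224 to 1978 in the same libraries. Among the 9 tested flavonoid regulators the median log2 fold change was 0.16 for phosphate at 30 d and 0.15 at 90 d, and neither edgeR nor DESeq2 on 6 libraries called any for phosphate. The most abundant, Ebr05G065900, annotated as MYB123, whose Arabidopsis counterpart promotes proanthocyanidin synthesis, had 12.2, 22.1 and 20.2 CPM in 30d -P and 0.330, 6.37 and 4.74 CPM in 30d +P. In 90d +P A, B and C it had 0.485, 0 and 24.1 CPM (8, 0 and 446 counts), with the same library high as for the 4 genes. In 90d -P A, B and C it had 3.83, 5.42 and 16.8 CPM. It was lowest there in A, while the 4 genes were lowest in B. Of the study's flavonoid pathway genes other than these 4, 46 were tested and 30 were positive at 30 d (median 0.47) and 19 at 90 d (median -0.085), with 0 called by edgeR in either and 1 higher and 2 lower called by DESeq2 on 6 libraries at 30 d. Of all its tested genes DESeq2 called 0.915% higher and 1.41% lower at 30 d. The list of pathway genes was drawn up by the study on these libraries.

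**Figure D5:**
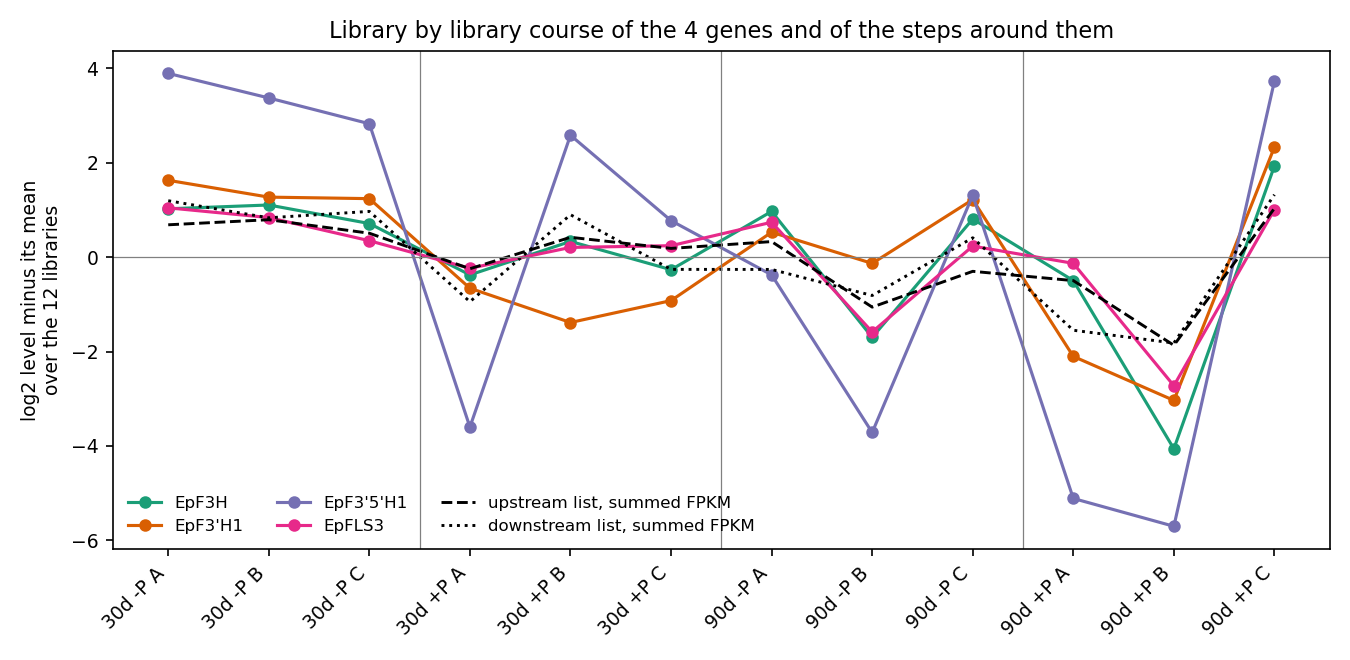
Log2 level of each gene (CPM) and of the summed FPKM of the upstream and downstream lists, minus its own mean over the 12 libraries; vertical lines part the groups. All 6 lines are lowest in 90d +P B and rise in 90d +P C, and *EpF3'5'H1* swings most, over 775-fold.

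The study reported lower leaf phosphorus content in -P than in +P plants. It also reported higher levels of a PHO1 homolog and of the microRNA miR399 in 90d -P. At an unadjusted p under 0.05 it further reported phosphate transporter, SPX-domain and purple acid phosphatase genes as higher in 90d -P than in 90d +P. That threshold is looser than the adjusted p used here. The phosphate transporter was among the genes the study chose for RT-qPCR. Genes of the phosphate starvation response, namely SPX-domain proteins, purple acid phosphatases and PHT1 transporters, were read beside the 4 genes as a check on the treatment. Of 41 tested, 20 had a positive log2 fold change for -P at 30 d (median -0.00060) and 27 at 90 d (median 0.27). Among all tested genes 49.3% and 49.5% were positive. edgeR called none for phosphate, and DESeq2 on 6 libraries called none at 30 d and 1 higher and 1 lower at 90 d. Of all its tested genes DESeq2 called 2.33% at 30 d, and 0.204% higher and 0.557% lower at 90 d. edgeR called 1 of the phosphate starvation genes over time, Ebr06G000490, which fell in both treatments, by 1.59 without and 1.405 with phosphate on the log2 scale (edgeR adjusted p = 0.0236 and 0.0380). Of all genes edgeR called 5.58% without and 3.02% with phosphate. Over time DESeq2 on 6 libraries called 2 of the list higher and 3 lower without phosphate, and 1 higher and 2 lower with it. Its shares of all genes were 4.07% and 9.1% without phosphate, and 2.87% and 6.35% with it. Their summed FPKM was 519 to 722 in 30d -P, 613 to 777 in 30d +P and 604 to 631 in 90d +P. It was 538 and 664 in 90d -P A and C and 1401 in 90d -P B, the 90d -P library in which all 4 flavonoid genes were lowest. The part of phosphate status in that library's flavonoid levels was not tested.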

How the data were processed

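Leaf mRNA of 12 samples in 4 groups of 3 was analysed from a table of raw read counts per gene and a table of FPKM (fragments scaled for transcript length and depth), both deposited by the authors. The submitters' processing notes name HISAT2 2.0.5, StringTie 1.3.3b and featureCounts 1.5.0-p3; the genome build, the strand setting and the treatment of reads that fit several genes are not given in the sources used here. The FPKM values of the authors were scaled by size factors, the ratio of implied to DESeq2 library size being 1.00 in each library. A row with no gene identifier was left out. Samples were grouped by their titles.

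Counts were filtered (filterByExpr), scaled by TMM and fitted for all 4 groups together with edgeR 4.0.16 (robust quasi-likelihood) in R 4.3.3, with 8 residual degrees of freedom. The SE was taken as |log2 fold change| divided by √F, and CPM use TMM library sizes. Likeness used log2 CPM with a prior count of 0.5. The script was tested on simulated data. Alternatives were RLE scaling, other filters, 2 groups alone, no robust option, the likelihood ratio test, DESeq2 1.42.0, voom and limma 3.58.1 on log2(FPKM + 1) and log2(FPKM + 0.1), a replicate block and each library left out.

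The 4 genes, the lists and the tests were chosen with earlier results of these data known. Genes other than the 4 were named by rule: the most abundant gene and any called gene of each list (family, upstream, downstream, regulators, phosphate starvation, the study's pathway genes), copies with identifiers within 100, and the 3 genes most like each member. p-values measure the spread between samples, and among the 4 genes low counts limit precision for *EpF3'5'H1* in its lowest libraries, and among the other named genes for those with few counts at 30 d or in +P.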

Additional observations from a re-analysis of the deposited data

How the results depend on the processing

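None of the 20 gene comparisons was called by edgeR, and with another scaling, filter, pair of groups, the likelihood ratio test or a left-out library none became called; DESeq2 on 6 libraries made 3 calls, with log2 fold changes of 1.03 for *EpF3H* and 2.36 for *EpF3'H1* at 30 d and -3.29 for *EpF3'5'H1* in 90d -P against 30d -P. The phosphate effect at 30 d and the change over time in -P kept their directions under every alternative run, but not their sizes: with 1 library left out, the 30 d effect of *EpF3'5'H1* ran from 1.48 (without 30d +P A) to 3.59 (without 30d +P B), and its -P change from -4.67 (without 90d -P C) to -2.72 (without 90d -P B), while without 90d -P B the -P changes of *EpF3H*, *EpF3'H1* and *EpFLS3* shrank to -0.073, -0.48 and -0.28. The 90 d phosphate effect of *EpF3H*, *EpF3'H1* and *EpF3'5'H1* turned to 0.34, 1.27 and 1.19 with voom, 0.87, 1.23 and 0.58 on log2(FPKM + 1), and 0.89, 1.43 and 1.26 on log2(FPKM + 0.1). The +P change over time of *EpF3H* and *EpF3'5'H1* turned to -0.19 and -3.02 with voom, -0.73 and -1.38 on log2(FPKM + 1), and -0.75 and -2.09 on log2(FPKM + 0.1). The replicate letters did not pair the samples, since deviations of same-letter samples had r of -0.19 to 0.23 (median -0.0094, 4 of 18 over 0.1); with a replicate block, *EpF3H* and *EpF3'H1* at 90 d turned to 0.19 and 0.63, *EpF3H* and *EpF3'5'H1* over time in +P to -0.11 and -1.43, and the genes called over time fell to 121 (-P) and 10 (+P), with Ebr03G048300 still called in -P (adjusted p = 0.0499) and not in +P (0.0708), and Ebr03G048460 called in neither (0.0603 and 0.0848). With 1 library left out, the 90 d effect ran from -0.76 to 1.80 (*EpF3H*), -0.76 to 3.14 (*EpF3'H1*), -3.39 to 5.53 (*EpF3'5'H1*) and -0.47 to 1.00 (*EpFLS3*); the +P change from -1.31 to 1.25, -1.54 to 2.37, -6.75 to 2.31 and -0.999 to 0.47; the interaction from -1.79 to 0.78, -3.12 to 0.79, -5.58 to 3.47 and -1.17 to 0.31; the log2 ratio difference from -2.61 to 0.85 (30 d) and -1.37 to 0.83 (90 d). Leaving out 90d +P C and 90d -P B together was added after seeing the data and chosen from these genes' own values, which favours higher -P levels by construction: at 90 d it gave 2.27, 3.41 and 6.08 for the hydroxylases and 1.41 for *EpFLS3*, over time in +P -1.31, -1.52 and -6.76, and as interaction 1.24, 1.05, 4.04 and 0.72 for *EpFLS3*, again with no call. Genes called, in the order 30 d, 90 d, time in -P, time in +P and interaction, were 108, 138, 2789, 2021 and 6 with the likelihood ratio test, 280, 247, 3224, 2372 and 34 with DESeq2 on 12 libraries, and 398, 0, 2406, 2061 and 0 with voom; DESeq2 on 6 called 3225 and 2207 over time, 2 groups alone 314 and 2, limma on FPKM 3 and 9 at 90 d, and single left-out libraries moved the time counts between 55 and 1602 (-P) and between 4 and 1424 (+P). The cause of these shifts was not tested.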
